A study of Homo sapiens with 45 samples.

Results

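Jurkat cells that received CRISPR guides against ARID1A (gARID1A) were compared with Jurkat cells that received guides against the AAVS1 site (gAAVS1). The comparison rests on 6 of the series' 45 RNA-seq libraries, 3 in each group, chosen by the group and replicate that head each column of the deposited Jurkat table. Jurkat is a human T-cell acute lymphoblastic leukaemia (T-ALL) line. Cells of both groups expressed Cas9, took up their guides by lentivirus, were under puromycin for 4 days and gave RNA on day 10, so the nuclease, virus and drug were common to the control. The labels call the libraries biological replicates and do not name clones, and the cells are therefore read as transduced populations. The rest of the series holds Jurkat cells with guides against ARID1A and ARID1B (gARID1A_1B), SMARCA4 (gSMARCA4), or SMARCA4 and SMARCA2, Jurkat cells in 1 uM BRM014 or 0.01% DMSO for 6 h or 8 d, and 3 other T-ALL lines with the same inhibitor.

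ARID1A is a large DNA-binding subunit of canonical BAF (cBAF), a complex that uses ATP to slide and evict nucleosomes and so keeps enhancers open. A cBAF complex holds either ARID1A or its paralog ARID1B, and either SMARCA4 or SMARCA2 as its motor, and BRM014 blocks both motors. In developing T cells cBAF works at enhancers bound by RUNX1, TCF-1 (encoded by TCF7) and other lineage factors. The AAVS1 site lies in an intron of PPP1R12C on chromosome 19 and is a common target for control guides, since a cut there is tolerated.

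The 6 libraries held 29.7 to 47.9 times 1e+06 reads on genes, and 3.96% to 3.99% of gARID1A TPM and 3.70% to 3.87% of gAAVS1 TPM came from 28 cytosolic ribosomal protein mRNAs. The share of TPM from mRNAs of the mitochondrial genome was 21.2% to 22.9% in gARID1A and 22.2% to 22.8% in gAAVS1 (exact two-sided permutation p = 0.4, where 0.1 is the smallest that 3 against 3 libraries can give). By the same test p was 0.5 for reads and 0.1 for the ribosomal protein share and summed replication-dependent histones. It was also 0.1 for the number of genes at or above 1 TPM, 16300 to 16487 in gAAVS1 and 16168 to 16238 in gARID1A. TPM is the number of transcripts per 1e+06, corrected for gene length. T cell markers were abundant in every library, with CD3E at 398 to 659 TPM, CD3D at 533 to 630.1 TPM and LCK at 191 to 232 TPM, as the label says. Of 10 B cell, 12 myeloid, 10 natural killer, 10 erythroid and 10 epithelial or fibroblast markers only 2, 2, 2, 3 and 3 passed the filter of 1 TPM in 3 Jurkat libraries, and MS4A1, VPREB1 and S100A8 were at 0 in all 6. Summed T cell markers were at 1629 to 1690 TPM in gAAVS1 and 1400 to 1539 TPM in gARID1A. Summed myeloid markers were at 13.2 to 14.8 and 9.74 to 12.1 TPM. The permutation test gave p = 0.1 for both sums and p = 0.2 for the erythroid and the epithelial or fibroblast sums. In bulk RNA fewer cells of a type and less RNA per cell cannot be told apart.

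ARID1A mRNA itself was only slightly lower in gARID1A than in gAAVS1. It stood at 93.8, 95.1 and 94.2 TPM in the gAAVS1 libraries and at 79.2, 85.0 and 85.0 TPM in the gARID1A libraries. The groups did not overlap, and the gARID1A level was 0.88 of the control level. On the scale used for every test, log2(TPM + 1), which understates the change of genes near or under 1 TPM, the difference was -0.18 ± 0.05 (limma standard error, n = 3 per group) with an adjusted p of 0.00734. Small insertions or deletions at a guide's cut can end a reading frame while leaving most of the transcript countable, so this level does not measure editing, and protein was not analysed here. Jurkat cells in DMSO, from the inhibitor experiment, held 81.0 TPM at 6 h and 76.9 TPM at 8 d, close to the gARID1A value. In gARID1A_1B, which also received ARID1A guides, ARID1A mRNA was at 105.9, 102 and 95.9 TPM, above every gAAVS1 library. A lower level was therefore not shared by both groups with ARID1A guides.

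Other subunits of the complex moved little. Of 23 tested genes for cBAF and shared BAF subunits 0 rose and 5 fell, with a median difference of -0.01 against -0.03 for all genes tested. Of all genes tested 7.72% rose and 13.2% fell. DPF3, a reader of acetylated histones, fell by 0.66 ± 0.10, BCL7A by 0.42 ± 0.06 and BCL11B, a zinc-finger factor that is also needed for T cell identity, by 0.38 ± 0.06. The paralog ARID1B had 22.7 ± 0.525 TPM in gAAVS1 and 22.2 ± 0.446 TPM in gARID1A (SD, n = 3), and the motor SMARCA4 97.5 and 96.1 TPM. Neither difference passed the test. SMARCA2, the other motor, was at 21.8 and 24.9 TPM, a difference of 0.18 ± 0.07 with an adjusted p of 0.0754, and passed the test only under 3 of the alternative analyses. Among 7 genes for the related PBAF and ncBAF complexes PHF10 rose by 0.19 and PBRM1 fell by 0.22.

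Across the transcriptome, 1385 of 17936 genes tested (7.72%) rose and 2363 (13.2%) fell at a Benjamini-Hochberg adjusted p under 0.05 in limma. Most of these differences were small. A difference of at least 1 on the log2(TPM + 1) scale, called 2-fold here, was reached by 32 risen genes (0.178% of those tested) and 104 fallen genes (0.58%). Rescaling the libraries by median ratios, which moved the median of all genes by 0.03, gave 1919 rises and 2023 falls. Running limma-voom on reads recovered from TPM gave 2120 rises and 2219 falls, so the excess of falls over rises among all called genes depends on scaling. The 2-fold counts were 36 and 100 after that rescaling, 99 and 271 with a pseudocount of 0.1, and 145 and 282 with limma-voom. Of the 2-fold genes 12 were microRNA or snoRNA loci of 61 to 158 bases with 0 to 15 reads per library, and these are not described further.

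**Figure D1:**
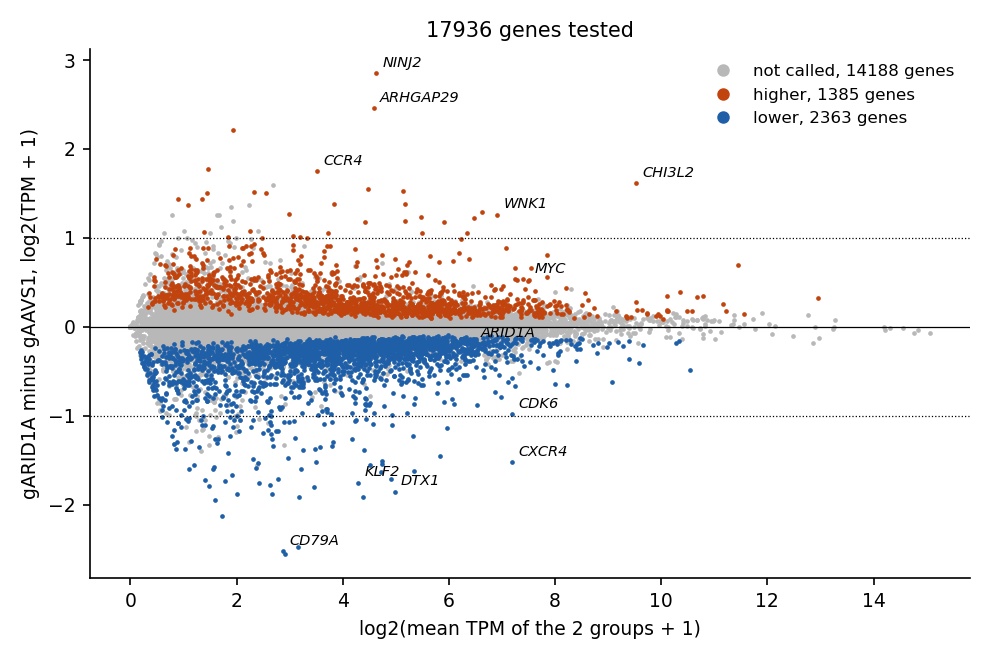
Each point is 1 of the 17936 genes tested, with its mean level in both groups on the x axis (log2 of mean TPM + 1) and the gARID1A minus gAAVS1 difference on the y axis (log2 of TPM + 1). Red points are the 1385 genes that rose and blue points the 2363 that fell; dotted lines mark a difference of 1 in either direction, and more blue than red points lie beyond them.

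The largest rise on the log2(TPM + 1) scale was in NINJ2, which encodes ninjurin-2, a small adhesion protein of the cell surface. NINJ2 mRNA was at 4.81, 5.05 and 5.18 TPM in gAAVS1 and at 41.2, 44.2 and 41.8 TPM in gARID1A. The groups lay far apart, 8.46-fold in mean TPM, and the difference was 2.85 ± 0.10 (adjusted p = 7e-15). ARHGAP29, which encodes a GTPase-activating protein, followed with 6.63, 6.78 and 5.81 TPM against 42.1, 39.6 and 37.2 TPM (2.46 ± 0.10, adjusted p = 1.51e-13). CTTN, which encodes the actin-binding protein cortactin, rose from 10.3 ± 0.718 to 32.3 ± 0.07 TPM. The chemokine receptor gene CCR4 had 5.53, 3.60 and 3.59 TPM in gAAVS1 and 21.3, 15.3 and 13.5 TPM in gARID1A (1.75 ± 0.32, adjusted p = 0.000414). All 3 gARID1A libraries were above all 3 control libraries, as the rule that named CCR4 requires, and replicate 1 was the highest in both groups.

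The same lean of replicate 1 was present in CHI3L2, ASNS, SHISA2 and ATF3. CHI3L2, which encodes a secreted chitinase-like protein, had 493, 274 and 325 TPM in gAAVS1 and 1433, 987 and 896 TPM in gARID1A. ASNS, the asparagine synthetase gene, had 21.7, 15.2 and 13.9 TPM against 70.0, 43.0 and 41.2 TPM, and SHISA2 8.66, 6.02 and 6.13 TPM against 24.4, 17.3 and 17.4 TPM. In each of these genes every gARID1A library exceeded every gAAVS1 library, but the rule that named most of them requires this. Of all genes tested 15.5% had groups without overlap in the higher direction. ASNS shares reads with the overlapping locus CZ1P-ASNS, and its DMSO level ran from 21.6 TPM at 6 h to 46.4 TPM at 8 d in the inhibitor experiment. Of 20 tested genes of amino acid stress, in which ATF4 drives ASNS, only ASNS and DDIT4 rose and 0 fell. That compares with 7.72% and 13.2% of all genes. A rise with little spread between replicates was seen in NSMF (2.04 ± 0.214 to 7.66 ± 0.548 TPM).

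On the log2(TPM + 1) scale the falls of protein-coding genes were led by CD79A, which encodes a signalling chain of the B cell receptor and is expressed in some T-ALL. CD79A was at 11.7, 11.0 and 12.0 TPM in gAAVS1 and at 1.10, 1.39 and 1.07 TPM in gARID1A. Its control level was 9.77 times the gARID1A level (-2.53 ± 0.15, adjusted p = 7.08e-11). The groups did not overlap, which the rule that named CD79A requires. Its partner chain CD79B went the other way, from 4.54 to 7.50 TPM (0.61 ± 0.11). TCF7, which encodes the T lineage factor TCF-1, was at 13.7, 14.6 and 13.9 TPM in gAAVS1 and 1.60, 1.68 and 1.87 TPM in gARID1A (-2.47 ± 0.08, adjusted p = 2.98e-15). NKG7, which encodes a granule protein of cytotoxic cells, fell from 9.56 ± 1.3 to 2.21 ± 0.186 TPM. In the DMSO libraries of the inhibitor experiment NKG7 had a mean of 4.46 TPM (3.43 to 5.99), nearer to gARID1A than to gAAVS1. The summed TPM of the B cell markers, which include CD79A, was 16.0 to 17.8 in gAAVS1 and 8.64 to 10.7 in gARID1A, and that of the natural killer markers, which include NKG7, 11.9 to 14.6 and 5.08 to 6.80. CD79A made up 11.6 TPM of the mean B cell sum of 17.2 in gAAVS1 and 1.19 of 9.48 in gARID1A. NKG7 made up 9.56 TPM of the mean natural killer sum of 13.6 in gAAVS1 and 2.21 of 5.98 in gARID1A. Both sums thus fell mainly through these genes and show no general fall of either list. The part of other cells in the falls of CD79A and NKG7 was not tested.

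**Figure D2:**
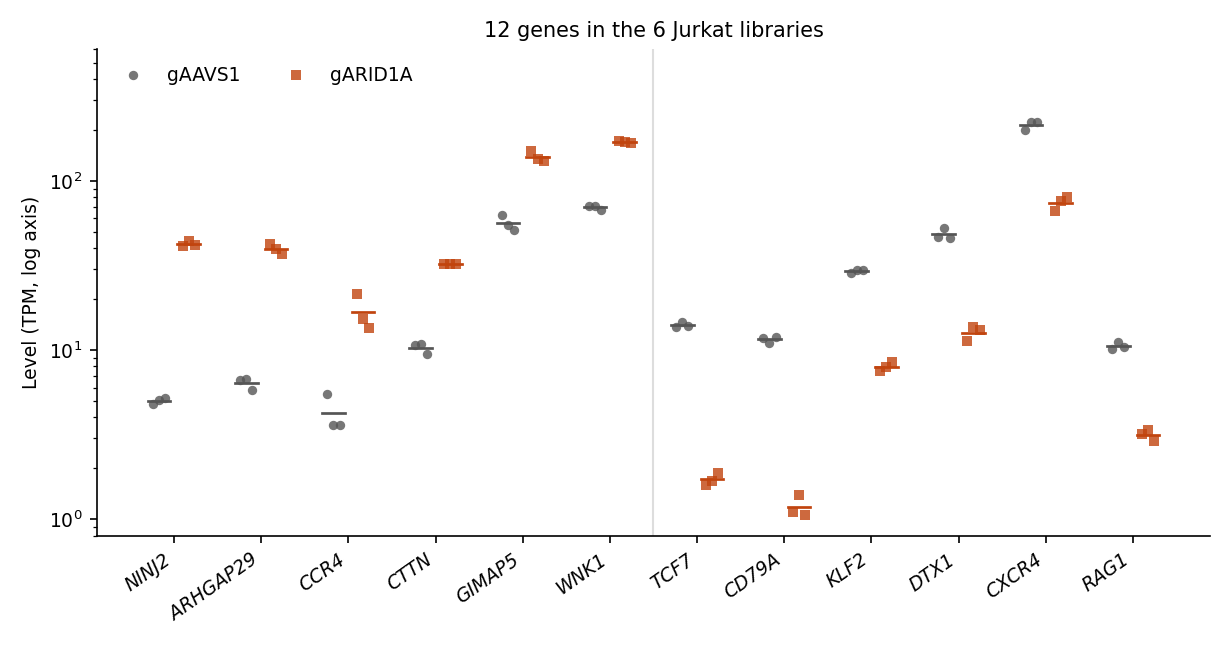
Levels of 6 genes that rose (left) and 6 that fell (right) in the 3 gAAVS1 libraries (grey circles) and the 3 gARID1A libraries (red squares), in TPM on a log axis; short lines are group means. The groups overlap in none of the 12 genes, most of which were chosen by a rule that requires this. Groups without overlap were also found in 15.5% of all genes in the higher and 23.8% in the lower direction.

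Among factors that set T lineage identity, changes went both ways. Of 25 tested genes 10 fell (13.2% of all genes did), 5 of them by 2-fold, 4 rose (7.72% did) and 11 were not called. The median was -0.07 against -0.03 for all genes. KLF2, which holds T cells quiescent and drives homing receptors, was at 28.4, 29.6 and 29.7 TPM in gAAVS1 and 7.53, 7.90 and 8.53 TPM in gARID1A (-1.75 ± 0.12, adjusted p = 1.01e-09). The Ikaros family members IKZF2 (Helios) and IKZF3 (Aiolos) fell by 1.38 ± 0.12 and 1.18 ± 0.08, and ZBTB16, the PLZF gene of innate-like T cells, by 1.16. IKZF1, the founding member of that family, rose by 0.73, RUNX3 by 0.70 and ID3, an inhibitor of E proteins, by 0.81. LEF1, the closest relative of TCF7, had 553 TPM in gAAVS1 and 559 TPM in gARID1A (0.02 ± 0.08, adjusted p = 0.92).

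The oncogenic factors of T-ALL gave a mixed picture. Of 19 tested genes 4 rose and 5 fell, against 7.72% and 13.2% of all genes, with a median of -0.08. MYC was at 155, 140.1 and 147 TPM in gAAVS1 and 215, 219.8 and 204 TPM in gARID1A, without overlap (0.53 ± 0.07, adjusted p = 1.03e-05). ETS1 rose by 0.56 ± 0.09, LYL1 by 0.39 and TAL1, the basic helix-loop-helix oncogene that Jurkat expresses, by 0.38 ± 0.07. Its cofactor LMO1 fell by 0.60 ± 0.11. For GATA3 (0.25 ± 0.13), RUNX1 (-0.14 ± 0.08), MYB (-0.08 ± 0.09) and NOTCH1 (-0.12 ± 0.09) the differences did not pass the test.

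Genes of the NOTCH pathway, which drives most T-ALL, were split. Of 15 tested genes 6 fell and 4 rose, against 13.2% and 7.72% of all genes. DTX1, a direct NOTCH target that encodes an E3 ubiquitin ligase, had 46.8, 52.9 and 45.8 TPM in gAAVS1 and 11.3, 13.6 and 13.1 TPM in gARID1A (-1.85 ± 0.11, adjusted p = 6.82e-11). NOTCH3, which is also in the list of oncogenic factors, fell from 18.9 ± 1.8 to 6.80 ± 0.0613 TPM. NRARP, a feedback inhibitor of NOTCH, rose by 0.42, and HES1, a classical target, was not called (-0.16). The largest rise of the NOTCH list was in GIMAP5 (1.29), which is also counted in the GIMAP cluster. DTX1 levels in DMSO were 20.7 TPM at 6 h and 17.4 TPM at 8 d, nearer to gARID1A than to gAAVS1.

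The T cell receptor machinery changed in both directions, with 12 of 30 tested genes lower and 8 higher. The shares over all genes were 13.2% and 7.72%, and the list median was -0.11. CD3E, a signalling chain of the receptor, was at 639, 646 and 659 TPM in gAAVS1 and 398, 429 and 434 TPM in gARID1A (-0.62 ± 0.04, adjusted p = 5.26e-10). For its neighbours the test was not passed, with means of 552 and 605 TPM for CD3D and 105 and 107 TPM for CD3G. TRAT1, which stabilises the receptor at the surface, fell by 1.05 ± 0.09, and CD6 by 0.80 ± 0.10. GRAP2, the adaptor that links LAT to SLP-76, rose from 51.9 ± 4.62 to 109 ± 10.5 TPM and the costimulatory receptor CD28 from 2.71 ± 0.373 to 6.45 ± 1.1 TPM. CD4 rose by 0.66 and CD8A fell by 0.73.

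Of 10 tested genes that mark cortical thymocytes, 4 fell and 0 rose, against 13.2% and 7.72% of all genes. RAG1, a subunit of the recombinase that joins receptor gene segments, was at 10.2, 11.1 and 10.4 TPM in gAAVS1 and 3.21, 3.36 and 2.91 TPM in gARID1A (-1.48 ± 0.14, adjusted p = 5.87e-08). Its partner RAG2 fell by 0.88 ± 0.15 and CD1E, an antigen-presenting molecule of thymocytes, by 1.09 ± 0.16. TARP, a transcript of the T cell receptor gamma locus, fell from 13.2 to 2.77 TPM, but its reads can also belong to overlapping receptor segments. Its mean DMSO level was 6.02 TPM (3.20 to 9.58), nearer to gARID1A than to gAAVS1. DNTT, the template-free polymerase of the same stage, differed by 0.48 and was not called.

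Chemokine receptors, adhesion and homing genes changed in both directions, with 10 of 23 tested genes lower and 5 higher. Among all genes 13.2% fell and 7.72% rose, and the list median was -0.13. CXCR4, which holds leukaemia cells in the marrow niche, was at 201, 223 and 222 TPM in gAAVS1 and at 66.3, 76.4 and 80.0 TPM in gARID1A, with the groups well apart (adjusted p = 2.05e-09). CCR7 fell by 0.62, the integrin genes ITGAL and ITGB1 by 0.87 and 0.53, and CD99 by 0.99, while CCR8 rose by 0.64 together with CCR4 and NINJ2.

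Of 26 tested cytokine signalling genes 10 fell and 3 rose, against 13.2% and 7.72% of all genes, with a median of -0.10. Falls outnumbered rises over all genes as well. JAK3 fell by 0.85 ± 0.12, IL2RG, the common gamma chain it binds, by 0.64, IL9R by 0.94 ± 0.08 and IL7R by 0.48. SOCS1 and SOCS2, inhibitors of JAK signalling, rose by 1.00 ± 0.22 and 0.74 ± 0.13. SOCS1 stayed low, with 0.990, 1.72 and 1.36 TPM in gAAVS1 and 2.60, 3.93 and 4.81 TPM in gARID1A, and its DMSO level was 5.61 TPM at 6 h and 0.846 TPM at 8 d.

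Interferon-linked genes leaned upward, with 9 of 22 tested higher and 2 lower, against 7.72% and 13.2% of all genes, although the median was 0.00. IRF1, a transcription factor induced by interferon, was at 18.2, 19.1 and 17.8 TPM in gAAVS1 and 30.8, 32.7 and 35.2 TPM in gARID1A (0.81 ± 0.08, adjusted p = 1.19e-07). IFIT3 rose from 0.683 ± 0.183 to 2.54 ± 0.56 TPM, and IFIT2 and SAMD9L by 0.74 and 0.80, while BST2 fell by 0.61. Of 15 genes of MHC class I and antigen processing 7 rose and 1 fell, against 7.72% and 13.2% of all genes. Among the risen genes were the peptide transporter gene TAP2 (0.53 ± 0.04) and the immunoproteasome genes PSMB9 (0.54 ± 0.08) and PSMB8 (0.35 ± 0.07).

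All but 1 of the 6 tested GIMAP genes, a cluster of GTPases of lymphocyte survival on chromosome 7, rose, with a median of 0.78. Of all genes 7.72% rose. GIMAP5 was at 62.9, 55.2 and 51.0 TPM in gAAVS1 and 149.9, 134 and 132 TPM in gARID1A (1.29 ± 0.11, adjusted p = 2.41e-08). GIMAP4 rose by 1.18 ± 0.18 and GIMAP7 by 0.99 ± 0.11, and GIMAP2 differed by 0.26 with an adjusted p of 0.0956. GIMAP5 shares its reads with the read-through locus GIMAP1-GIMAP5. KCNH2, a potassium channel gene near the cluster, rose by 1.19.

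Most cell cycle genes were not called. Of 32 genes of DNA replication and mitosis 7 fell, against 13.2% of all genes, and 0 rose, with a median of -0.08, and CENPF, a kinetochore gene, had the largest change (-0.45 ± 0.07). CDK6, the G1 kinase of T cells, was at 206, 197 and 178 TPM in gAAVS1 and 99.4, 94.8 and 97.6 TPM in gARID1A (-0.99 ± 0.08, adjusted p = 2.28e-08), while CCND2, one of its cyclins, rose by 0.61 ± 0.05. CDK6-AS1, which lies beside CDK6, fell from 32.0 to 7.73 TPM, and reads of the pair cannot be told apart where they overlap because the kit did not keep strand. CDKN1A, the CDK inhibitor induced by p53, fell by 0.72 ± 0.17, and of 19 p53 targets 3, CDKN1A, FAS and XPC, fell and 0 rose, a share near the 13.2% of all genes that fell. In the BCL2 family 5 of 15 tested genes fell, BIK, BCL2L1, BCL2L11, BMF and BID, and 2 rose, against 13.2% and 7.72% of all genes.

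Most growth genes were not called either. Over all genes 7.72% rose and 13.2% fell. Of 28 ribosome biogenesis genes 5 rose, led by PPAN (0.46 ± 0.05), and 0 fell, with a median of 0.12. In 28 cytosolic ribosomal protein genes the counts were 5 and 0 with a median of 0.07, and in 24 nuclear subunits of oxidative phosphorylation 7 and 0 with a median of 0.11. Of 23 cholesterol genes 1 rose and 1 fell, and of 26 Polycomb genes 2 rose and 2 fell. None of 13 mitochondrially encoded mRNAs and 1 of 22 replication-dependent histone genes was called.

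**Figure D3:**
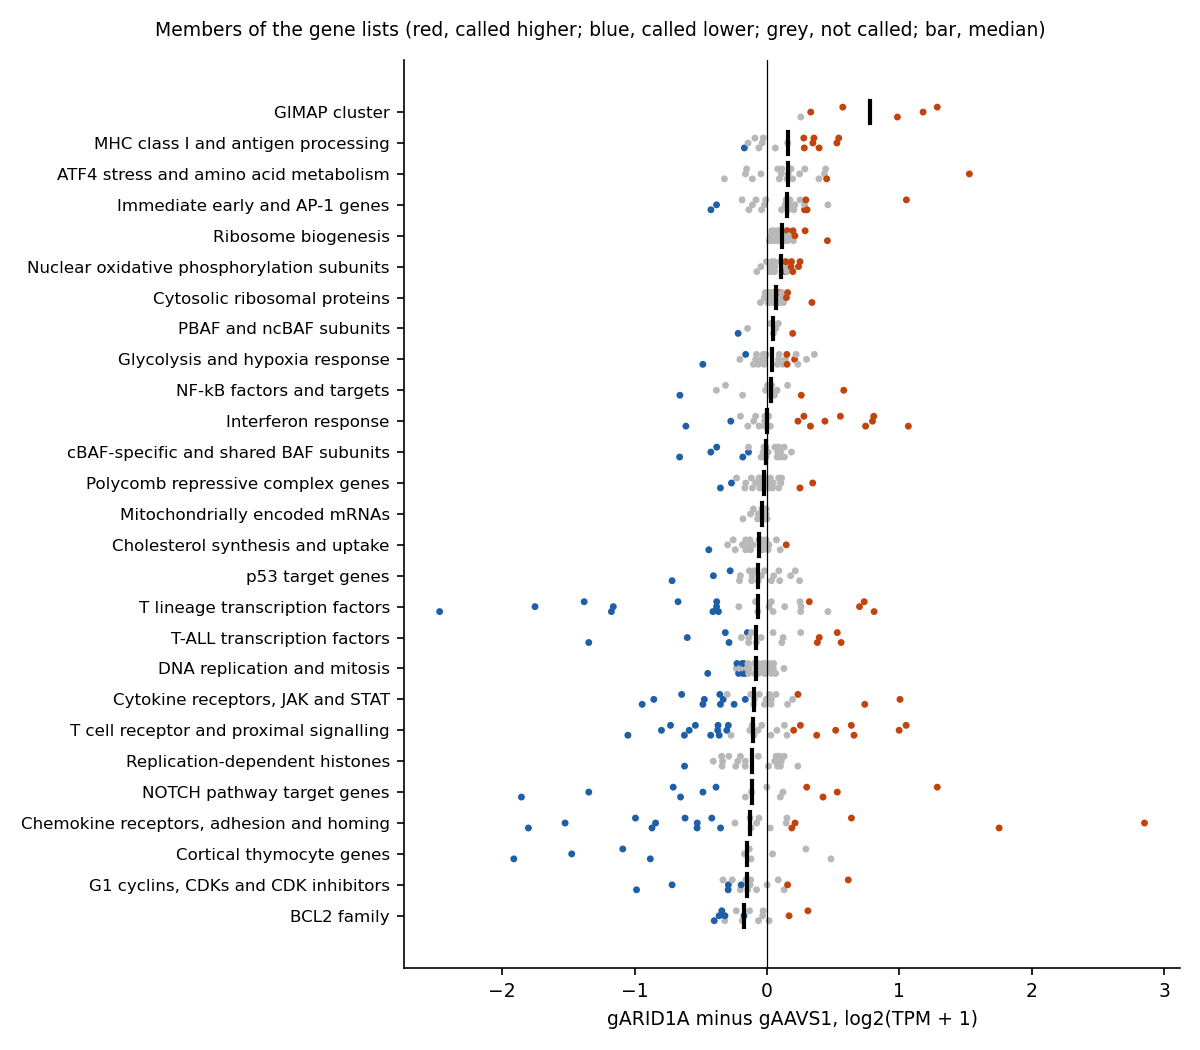
The gARID1A minus gAAVS1 difference (x axis, log2 of TPM + 1) of every tested member of 27 gene lists, 1 list per line, ordered by median (black bar). Red members rose, blue members fell and grey members were not called; the GIMAP cluster has the highest median, 0.78, while lists of T lineage and homing genes spread widely on both sides of 0.

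Several changed genes lay next to each other. Of 130 2-fold genes with a position on GRCh38, 27 (20.8%) had another 2-fold gene of the same direction within 200 kb, while 3.41% of all genes tested with a position had a 2-fold gene that close. The 27 include loci that share reads, such as ASNS with CZ1P-ASNS and GIMAP5 with GIMAP1-GIMAP5, which can raise their share. The longest stretch was on chromosome 12, where NINJ2 (564296 to 663445), the lncRNA loci LINC02455 and LOC101929432, WNK1 (752579 to 911452) and RAD52 (911736 to 991122) rose. WNK1, a kinase that controls chloride transport and lymphocyte adhesion, was at 71.2, 70.9 and 67.7 TPM in gAAVS1 and 171, 169 and 167 TPM in gARID1A (1.26 ± 0.06, adjusted p = 3.14e-12). LINC02455 was at 0 in all 3 gAAVS1 libraries and at 1.50, 2.35 and 1.35 TPM in gARID1A, and LOC101929432 went from 0.348 to 5.31 TPM. RAD52 rose by 0.36. NINJ2-AS1, which lies inside NINJ2, was at 1.17 and 1.29 TPM and was not called. The rise ended on both sides: B4GALNT3, just before NINJ2, differed by 0.04 and was not called, and ERC1, after RAD52, fell by 0.34. Pairs of neighbours that fell together were DTX1 and RASAL1, LPAR6 and RCBTB2, LZTFL1 and CXCR6, ABI3 and GNGT2, and FXYD2 and FXYD6, of which FXYD2 and FXYD6-FXYD2 share reads. Mean DMSO levels of RASAL1 (8.61 TPM), LPAR6 (2.03 TPM), RCBTB2 (26.0 TPM) and CXCR6 (1.13 TPM) were, like that of DTX1, nearer to gARID1A than to gAAVS1. For FXYD2 and FXYD6 the DMSO means at 6 h and 8 d were nearer to gAAVS1. LPAR6 lies inside RB1, which fell by 0.29, and without strand their reads cannot be told apart where they overlap.

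The sequences upstream of NINJ2 and WNK1, which rose together, and of CD79A, which had the largest fall of any protein-coding gene on the log2(TPM + 1) scale, are printed here from RefSeq on GRCh38.p14. Each is the 250 bases before the outermost annotated start, 5′ to 3′ on the gene's strand, and capitals mark exact matches, on either strand, to core letters of known sites: TGTGGT for RUNX factors, CGGAAG for ETS factors, CTTTGA for TCF and LEF, TGANTCA for AP-1, and AGATAA for the GATA family. They come from chr12:663446-663695 (minus strand), chr12:752329-752578 (plus strand) and chr19:41877029-41877278 (plus strand).
NINJ2: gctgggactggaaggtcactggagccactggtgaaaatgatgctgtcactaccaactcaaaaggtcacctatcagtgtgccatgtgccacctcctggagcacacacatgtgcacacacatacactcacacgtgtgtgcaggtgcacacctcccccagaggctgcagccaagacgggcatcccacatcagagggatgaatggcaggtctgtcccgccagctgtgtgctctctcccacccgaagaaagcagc
WNK1: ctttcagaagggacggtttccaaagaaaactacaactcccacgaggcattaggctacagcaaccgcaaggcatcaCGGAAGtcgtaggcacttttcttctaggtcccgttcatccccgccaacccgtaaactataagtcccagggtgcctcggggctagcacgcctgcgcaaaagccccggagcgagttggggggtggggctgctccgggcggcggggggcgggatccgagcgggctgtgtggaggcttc
CD79A: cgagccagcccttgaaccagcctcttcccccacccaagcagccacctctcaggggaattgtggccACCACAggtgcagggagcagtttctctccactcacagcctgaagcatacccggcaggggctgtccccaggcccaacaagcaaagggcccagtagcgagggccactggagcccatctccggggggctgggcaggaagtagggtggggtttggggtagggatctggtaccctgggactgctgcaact
WNK1 has 1 ETS core and CD79A 1 RUNX core, and NINJ2 has none of the 5 in this window. Of 11874 tested genes with such a promoter 8.39% hold the RUNX core, against 14 of 67 (20.9%) of the 2-fold lower genes and 0 of 23 of the 2-fold higher genes. ETS cores, the most frequent, were in 26.6% of all promoters, in 10.4% of the lower and in 17.4% of the higher set. These shares are descriptions of letters in a window and were not tested.

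Blocking the motors of BAF with BRM014 gave a separate view, since those libraries have their own DMSO controls and share none with the guide groups. BRM014 changed 47.4% of genes at 6 h and 59.9% at 8 d. Of the 104 2-fold falls 69 (66.3%) were also lower after 6 h of BRM014, against 20.7% of all genes, and 75 (72.1%) after 8 d, against 23.0%. These 69 and 75 genes are 1.86% of the 3708 genes lowered at 6 h and 1.82% of the 4127 at 8 d. A list of 104 genes keeps those shares small. Counting falls of any size, 922 of 3708 (24.9%) and 1094 of 4127 (26.5%) also fell with ARID1A guides, against 13.2% of all genes. Counting 2-fold falls, 32 of 276 (11.6%) at 6 h and 57 of 383 (14.9%) at 8 d did so, against 0.58%. The rises overlapped less at 6 h: 7 of 32 (21.9%) were also higher and 7 were lower, against 26.8% of genes that rose with BRM014 at that time, while at 8 d 20 of 32 (62.5%) were higher and 5 lower, against 36.9%. Across all 17936 genes, which are not independent replicates, Pearson's r between the ARID1A and BRM014 differences was 0.16 at 6 h and 0.33 at 8 d.

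Single genes fell into distinct patterns. TCF7 fell by 2.38 at 6 h and 1.99 at 8 d of BRM014, and its ARID1A difference was not distinguishable from the 6 h one (difference of the 2 effects -0.10, adjusted p = 0.54). NOTCH3 fell by a like amount in all 3 settings, by 1.35 with ARID1A guides and by 1.49 and 1.43 with BRM014 at 6 h and 8 d. NINJ2 and ARHGAP29 did not pass the test at 6 h (-0.13 and -0.18) and rose by 1.29 and 2.04 at 8 d. CD79A fell by 0.39 at 6 h and by 2.42 at 8 d. CXCR4 and TRAT1 fell further with 8 d of BRM014 than with ARID1A guides, by 4.21 and 4.11, and both differences of effects passed the test (2.68 and 3.06, adjusted p = 3.4e-11 and 1.2e-13).

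Other genes went in opposite directions in the 2 perturbations. GRAP2 rose with ARID1A guides and fell by 2.34 and 2.05 with BRM014 at 6 h and 8 d. All 6 tested GIMAP genes fell with BRM014 at both times, with medians of -1.37 and -0.995, and all 6 differed between the perturbations. MYC fell by 0.94 and 0.93 with BRM014 at 6 h and 8 d, and the difference of effects was 1.48 at 6 h (adjusted p = 5.2e-10). HBEGF, a growth factor gene, fell with ARID1A guides from 60.5 ± 7.2 to 19.1 ± 3.63 TPM and rose by 2.29 after 8 d of BRM014. Of all genes 37.5% had an ARID1A effect that differed from the 6 h effect and 46.2% from the 8 d effect. Of the 104 fallen genes 56 had a lower and 8 a higher effect with ARID1A guides than with 6 h of BRM014, and 42 a lower and 29 a higher one than with 8 d. Of the 32 risen genes 24 had a higher and 0 a lower effect than at 6 h, and 13 a higher and 9 a lower one than at 8 d. Over all genes the effect was higher in 14.3% and lower in 23.2% at 6 h, and higher in 14.9% and lower in 31.2% at 8 d. The 2-fold genes were chosen by the ARID1A difference that enters these contrasts, which favours a stronger ARID1A effect, so nothing is read from their shares.

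**Figure D4:**
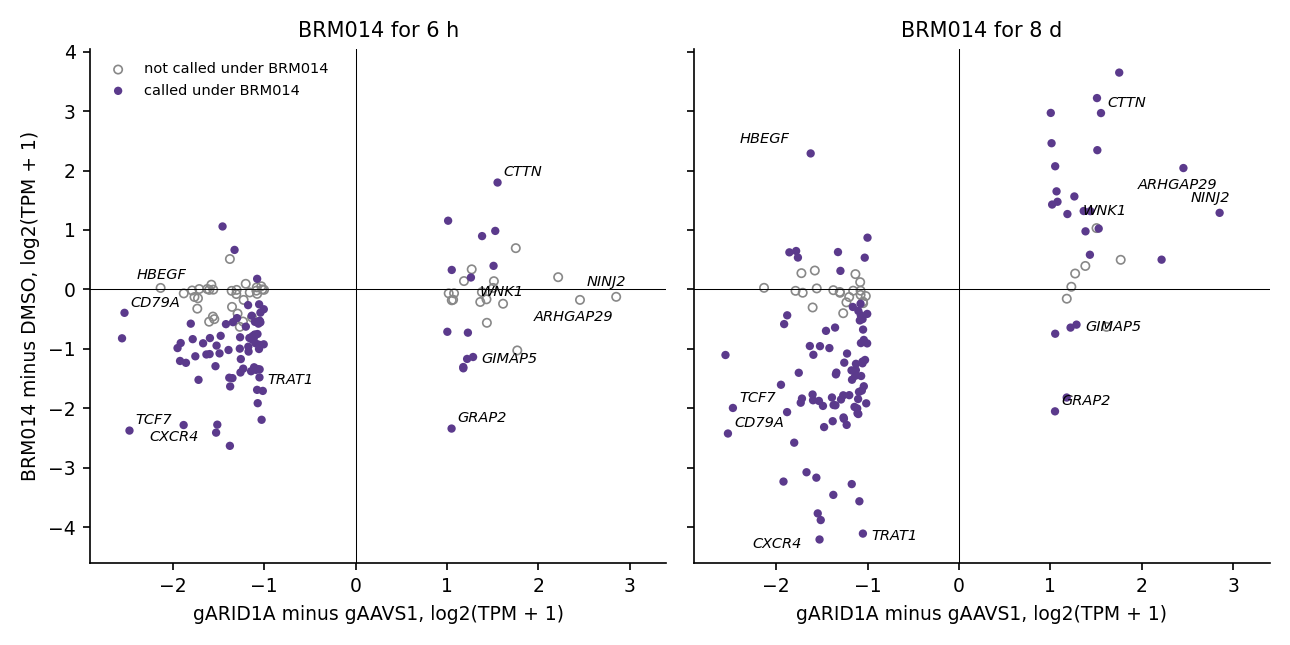
The 136 2-fold genes, with the gARID1A minus gAAVS1 difference on the x axis and the BRM014 minus DMSO difference at 6 h (left) or 8 d (right) on the y axis, both in log2 of TPM + 1. Filled points passed the test under BRM014; most genes that fell with ARID1A guides lie below 0 in both panels, while GRAP2 and GIMAP5 rose with ARID1A guides and lie below 0.

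Direct contrasts set the ARID1A values against 2 other guide groups without the shared control. Adding ARID1B guides changed 3749 genes (20.9%) relative to gARID1A, and 37 of the 104 fallen genes were lower still (against 10.6% of all genes), 7 were higher (10.3%) and 60 were not called. CXCR4 was lower by another 1.55, to 24.7 TPM, and RCBTB2 by 1.62, to 6.76 TPM. RAG1 was higher by 1.35, at 9.62 TPM, close to its gAAVS1 level of 10.6 TPM. SOCS1 reached 110.2 TPM with both guide sets (4.56 higher, adjusted p = 8.34e-12), and BMF, a pro-death BCL2 member that had fallen by 0.32 with ARID1A guides alone, was higher by 2.69. The fall of BMF lost its call in 5 of the alternative analyses.

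Guides against the motor SMARCA4 gave a different profile from guides against ARID1A in 38.4% of genes. Of the 104 fallen genes 39 were higher with SMARCA4 guides (against 27.3% of all genes), 23 were lower (11.1%) and 42 were not called. The 104 genes were chosen for low values in the gARID1A libraries that also enter both contrasts, which favours higher calls, so nothing is read from these shares. NINJ2 was at 7.85 TPM with SMARCA4 guides against 42.4 TPM with ARID1A guides (-2.30 on the log2 scale, adjusted p = 1.08e-13), whereas WNK1, in the same stretch, was at 152 and 169 TPM (-0.16, adjusted p = 0.048). DTX1 and KLF2 were higher with SMARCA4 guides by 1.44 and 1.17, and CXCR4 and TRAT1 were lower by 1.17 and 1.65. For CD79A (0.17), IKZF2 (-0.03) and NOTCH3 (0.08) the contrast did not pass the test.

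Genes near both guide target sites shifted as blocks. On chromosome 1, where ARID1A spans 26696015 to 26782104, the 327 tested genes on the telomeric side had a median difference of -0.12, and 28.4% of them fell, while the 1455 genes on the centromeric side had a median of -0.02 and 12.0% fell. Within 1 Mb on the telomeric side 11 of 21 genes fell, among them HMGN2 (-0.22), CEP85 (-0.19) and STMN1 (-0.20), and on the centromeric side 3 of 19, with ZDHHC18 at 0.09 and GPN2 at -0.02. The median of those 21 genes was -0.19, beside -0.18 for ARID1A itself. Taking each gARID1A library against the mean of gAAVS1, the median of the telomeric side was -0.16, -0.11 and -0.09.

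On chromosome 19, telomeric of PPP1R12C, the 116 tested genes had a median difference of 0.18, 48 of them (41.4%) rose and 4 fell, while the other 1056 genes of the chromosome had a median of 0.02 and 10.5% rose. PPP1R12C itself rose by 0.18. The window of chromosome 19 from 50 to 60 Mb had the highest median of 255 windows of 10 Mb. On chromosome 1 the window from 20 to 30 Mb, which holds ARID1A, ranked 11th from the lowest with a median of -0.11. The window from 10 to 20 Mb ranked 4th from the lowest, after windows of chromosomes 21, 10 and 4 that hold neither target, and that from 0 to 10 Mb ranked 19th. The positions around PPP1R12C were examined after the data were seen, and copy number at either site was not tested.

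**Figure D5:**
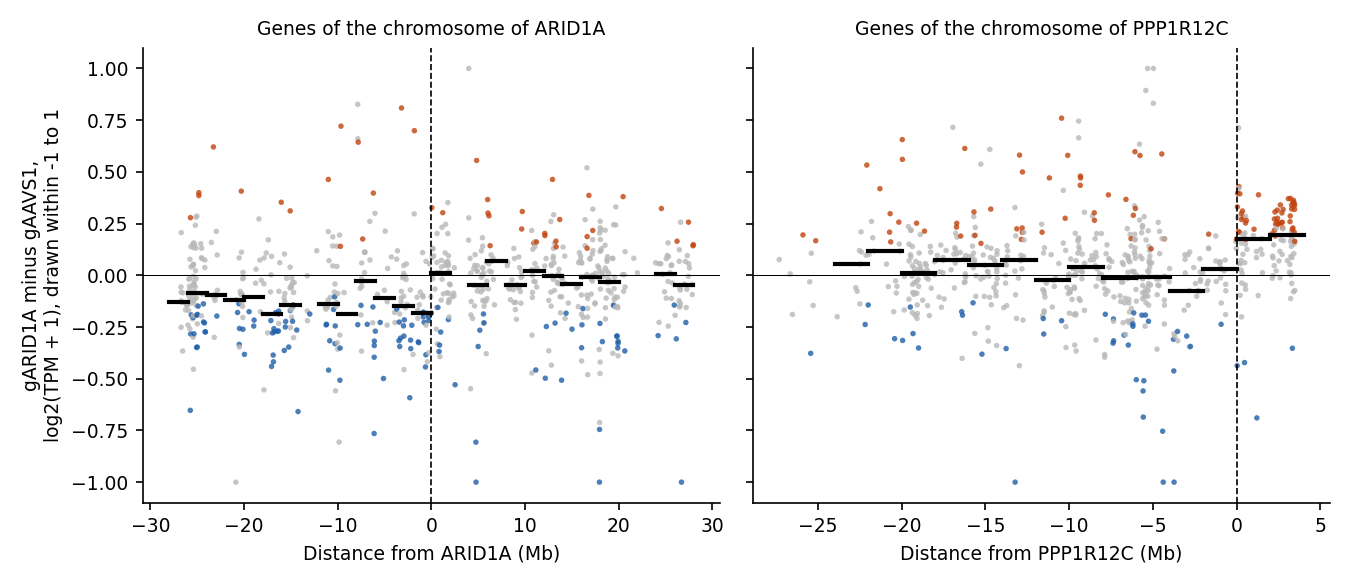
Each point is a tested gene, with its distance in Mb from ARID1A (left) or PPP1R12C (right), negative towards the start of the chromosome, on the x axis and the gARID1A minus gAAVS1 difference on the y axis (log2 of TPM + 1, values beyond -1 or 1 drawn at the edge). Red genes rose, blue genes fell, and black bars are medians of 2 Mb bins with at least 10 genes; bars left of ARID1A lie below 0 and the bars right of PPP1R12C lie above 0.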

How the data were processed

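RNA-seq was measured in 3 gARID1A and 3 gAAVS1 Jurkat libraries, labelled biological replicates. Nothing in the labels says whether they came from separate transductions. P-values and standard errors rest on the spread between libraries of a group, pooled over all 9 Jurkat groups. They therefore measure spread between libraries only, and not only between these 6. A fit of only the gARID1A and gAAVS1 groups called 1249 rises and 2048 falls. The deposited table gives TPM that the authors made per gene, beside a gene length in bases. Per the submitters' processing notes the tools were HISAT2 2.2.1, featureCounts 2.0.3 and DESeq2 1.38.2 with build hg38, and the kit did not keep strand, per the labels' protocols. Reads were recovered as whole multiples of TPM and length (100% of values within 0.01).

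Values were tested as log2(TPM + 1) with limma 3.58.1 in R 4.3.3 (trended, robust moderation) over all 27 Jurkat libraries in 9 groups, with 18 residual degrees of freedom, for 17936 genes at or above 1 TPM in at least 3 libraries. P-values were adjusted by Benjamini-Hochberg at 0.05 over all genes. The script was tested on simulated data. Pairs of libraries in each group differed beyond counting noise. Gene positions, types and promoters came from RefSeq GRCh38.p14, matched by symbol for 34951 of 38557 genes and for 35645 with synonyms. Depth limits low genes most, since 1 read is a large step there.

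Genes were named by rule: the 12 largest rises and falls with at least 5 TPM and no overlap, up to 4 called members per list, fixed T-ALL and BAF genes, and the 3 largest per direction in each contrast. Some genes chosen by this rule and 1 gene list are not reported here. Other named genes, such as those near the guide sites, those beside NINJ2 and further list members, were chosen after their values were seen. The comparison and the 34 gene lists were chosen with earlier results of these data known. Alternatives were a pseudocount of 0.1, no filter or a filter of 5 TPM, median-ratio rescaling, leaving out mitochondrial genes, plain moderation, only the groups compared, a replicate block, limma-voom, and leaving out each library. The replicate block with only the groups compared was chosen after seeing the data.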

Additional observations from a re-analysis of the deposited data

How the results depend on the processing

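With a pseudocount of 0.1 the 2-fold genes were 99 higher and 271 lower, those also called under BRM014 were 22 and 124 at 6 h and 71 and 135 at 8 d, and the chromosome 19 difference of medians (0.161 ± 0.016 SD over 3 libraries) was 0.192. Limma-voom gave 2120 higher genes, 145 and 282 2-fold genes, 30 and 131 shared at 6 h, 115 and 139 at 8 d, and 0.200 on chromosome 19, where a filter of 5 TPM gave 0.199. The cause of these shifts was not tested. ARID1B changed sign under median-ratio rescaling (0.00219) and limma-voom (0.00278), and SMARCA4 under both (0.009643 and 0.009519), without passing the test. Leaving out each library in turn gave 952 to 1352 higher and 1625 to 2268 lower genes, 30 to 35 and 98 to 117 2-fold genes, -0.20 to -0.15 for ARID1A, -0.05315 to 0.03122 for SMARCA4, 6 to 8 and 62 to 74 genes shared at 6 h, 17 to 22 and 70 to 82 at 8 d, -0.109 to -0.0641 on chromosome 1 and 0.165 to 0.193 on chromosome 19. Of 2121 values of named genes under the alternatives 2015 kept direction and side of the threshold, 94 in 20 genes were no longer called, 7 became called and 5 reversed. Of 1088 list counts 147 moved by over 1.5 times.

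With the replicate number as a block 1486 genes rose and 2515 fell, and within only the 2 groups 1519 and 2462. Same-numbered libraries correlated at 0.22, 0.03 and 0.12 in their deviations from the group means, and not all were over 0.1, so the numbers were not taken to pair the samples; replicates 1 and 3 correlated best with their own number and replicate 2 did not.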

Other observations

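A group of 9 genes of germ cells and the testis (DAZL, PAGE5, PNMA5, VCX3A, MAEL, GCNA, TEX13C, DMRTB1 and RHOXF2B), chosen after their values were seen, had a summed level of 28.6 to 32.9 TPM in gAAVS1 and 5.21 to 6.30 TPM in gARID1A. The sum was 5.56 to 6.96 TPM in gARID1A_1B, 98.1 to 107 TPM in gSMARCA4 and 54.7 to 63.2 TPM with guides against SMARCA4 and SMARCA2. DMSO libraries held 5.40 to 5.82 TPM, which overlaps gARID1A and lies below gAAVS1.

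The 6 DMSO libraries, from the inhibitor experiment, had a mean nearer to gARID1A than to gAAVS1 for 38 of the 104 2-fold falls and for 4 of the 32 rises. The share over all genes tested was not counted, so nothing is read from these counts. By gene length, falls were called in 7.16% of the 4486 shortest genes (up to 1595 bases) and in 18.8% of the 4484 longest (from 5910 bases). Rises were called in 5.08% and 7.20% of these genes, and the median differences were -0.018 and -0.052. Calls of both directions were thus fewer in the shortest genes than in the longest.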
